A study of Mus musculus with 15 samples.

Results

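Aminoacyl-tRNA synthetases join each amino acid to its transfer RNA, and the genes that encode them were read in RNA-seq of HY19636 cells and tumors after Gln antagonism or Gln withdrawal. Members were chosen by symbol alone: a letter followed by ars, or Eprs, with an optional ending of 1, 2, 3, a, b or l2. The tables hold 55291 genes, and 37 members are described here. Symbols ending in 2, other than Tarsl2, were taken as the mitochondrial enzymes (16 genes) and the others as the cytosolic enzymes (21 genes). All 37 passed the filter on low values in every comparison. HY19636 is a murine pancreatic ductal adenocarcinoma line that the labels give as p53 mut, and every group carries its genotype. The methods derive it from a C57BL/6 mouse in which Ptf1a-Cre, active in the pancreas, removed a p53 allele. The 15 libraries form 5 groups of 3: cells given 25 µM DON (6-diazo-5-oxo-L-norleucine, an antagonist of enzymes that use Gln) for 24 h, cells kept without Gln for 24 h, control cells, orthotopic tumors treated with DRP-104 (a prodrug that releases DON), and vehicle-treated tumors. Cells grew in DMEM with serum. Tumors grew in the pancreas of female C57BL/6J mice aged 8 to 10 weeks, given DRP-104 at 3 mg/kg or vehicle for 5 days followed by 2 days of rest, 2 times over, and were collected 21 days after transplantation. The sources used here do not say whether the 3 cultures of a group were grown apart, so p-values in culture measure only the spread between these libraries.

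Each cytosolic synthetase charges the transfer RNAs used by cytosolic ribosomes, and 8 of them (Dars, Eprs, Iars, Kars, Lars, Mars1, Qars and Rars) sit together in the multisynthetase complex. Mitochondria import a separate set encoded by other nuclear genes, except that Gars and Kars each encode both the cytosolic and the mitochondrial enzyme. Mitochondria have no glutaminyl enzyme of their own: Ears2 loads glutamate onto their transfer RNA for Gln, and an amidotransferase of Qrsl1, Gatb and Gatc converts it. When amino acids run short, uncharged transfer RNA activates the kinase GCN2, and the transcription factor ATF4, which pairs with C/EBP proteins, raises genes of amino acid supply. Many cytosolic synthetase genes are known ATF4 targets.

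Promoter windows (250 bases before to 50 after the start, RefSeq, GRCm38.p6) were found for 28 of the 37 members. They were searched on both strands for TGATGNAA, a core that ATF4 and C/EBP proteins bind, and for CGCATGCG, a core bound by nuclear respiratory factor 1, a regulator of mitochondrial genes. The first motif was in 5 of 14 cytosolic windows (35.7%) and 0 of 14 mitochondrial windows, against 3.97% of all 32851 windows. The second was in 2 of 14 mitochondrial windows (14.3%) and 0 of 14 cytosolic windows, against 1.87% of all. The windows that hold a motif are shown because the results on these 7 genes refer back to them. Capitals mark the motif on either strand, and the marked matches do not overlap each other.
Aars, chr8:111033592-111033891, plus strand: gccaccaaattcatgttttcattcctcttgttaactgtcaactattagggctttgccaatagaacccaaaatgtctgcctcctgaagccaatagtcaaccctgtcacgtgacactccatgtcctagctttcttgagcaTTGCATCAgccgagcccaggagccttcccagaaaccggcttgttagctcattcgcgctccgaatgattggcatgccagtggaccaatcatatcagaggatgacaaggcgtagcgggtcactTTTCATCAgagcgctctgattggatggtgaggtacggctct
Gars, chr6:55037751-55038050, plus strand: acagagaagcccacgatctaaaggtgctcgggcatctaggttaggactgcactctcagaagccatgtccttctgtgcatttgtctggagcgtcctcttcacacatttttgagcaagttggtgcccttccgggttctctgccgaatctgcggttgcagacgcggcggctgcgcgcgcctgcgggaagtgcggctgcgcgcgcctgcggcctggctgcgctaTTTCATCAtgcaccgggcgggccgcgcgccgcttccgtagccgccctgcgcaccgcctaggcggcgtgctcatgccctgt
Iars, chr13:49681880-49682179, plus strand: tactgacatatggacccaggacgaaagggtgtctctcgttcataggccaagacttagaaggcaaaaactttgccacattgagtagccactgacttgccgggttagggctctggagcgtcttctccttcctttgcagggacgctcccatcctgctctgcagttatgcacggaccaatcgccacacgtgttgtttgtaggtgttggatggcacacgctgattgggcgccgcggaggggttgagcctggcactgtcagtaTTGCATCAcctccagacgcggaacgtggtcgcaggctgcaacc
Tars, chr15:11399609-11399908, minus strand: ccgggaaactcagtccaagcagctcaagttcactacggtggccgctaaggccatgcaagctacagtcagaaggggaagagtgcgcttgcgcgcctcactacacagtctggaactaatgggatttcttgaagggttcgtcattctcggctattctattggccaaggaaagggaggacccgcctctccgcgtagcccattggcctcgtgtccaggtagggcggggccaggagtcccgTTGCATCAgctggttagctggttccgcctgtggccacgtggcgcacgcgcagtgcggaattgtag
Yars, chr4:129189653-129189952, plus strand: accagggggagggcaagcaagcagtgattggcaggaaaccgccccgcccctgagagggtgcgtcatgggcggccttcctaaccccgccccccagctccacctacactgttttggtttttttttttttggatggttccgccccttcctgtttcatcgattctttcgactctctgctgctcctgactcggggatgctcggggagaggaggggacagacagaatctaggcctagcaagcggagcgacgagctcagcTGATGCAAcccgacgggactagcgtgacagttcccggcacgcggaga
Vars2, chr17:35667543-35667842, minus strand: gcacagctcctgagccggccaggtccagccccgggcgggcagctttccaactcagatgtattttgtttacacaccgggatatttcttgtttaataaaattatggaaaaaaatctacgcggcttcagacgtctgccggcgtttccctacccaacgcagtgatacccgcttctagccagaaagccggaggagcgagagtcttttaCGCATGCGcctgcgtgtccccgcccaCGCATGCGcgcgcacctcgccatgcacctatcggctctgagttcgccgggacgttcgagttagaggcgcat
Wars2, chr3:99140840-99141139, plus strand: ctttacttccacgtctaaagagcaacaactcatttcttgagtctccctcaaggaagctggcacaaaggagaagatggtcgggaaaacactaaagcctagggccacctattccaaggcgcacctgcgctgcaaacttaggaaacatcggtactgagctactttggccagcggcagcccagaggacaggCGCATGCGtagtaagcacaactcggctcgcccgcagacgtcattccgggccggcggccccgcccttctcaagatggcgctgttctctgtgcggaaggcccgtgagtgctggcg

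Aars held the ATF4 core at 2 places and Vars2 held the nuclear respiratory factor 1 core at 2 places, and the other 5 genes held theirs once. In Iars and Yars the match lies after the start, as does the latter of the Aars matches. A match is a description of these letters, not a site of binding. No window was at hand for Cars, Hars, Hars2, Lars, Nars, Pars2, Rars, Vars and Wars.

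Total reads per library were 25.2 to 48.2 M in culture, highest in control library 3, and 16.3 to 20.7 M in tumors. Levels between genes were compared per kilobase of gene length at equal library depth (RPKM). In control cells the cytosolic members had a median of 55.5 RPKM (4.01 to 126) and the mitochondrial members 7.62 RPKM (1.16 to 236). Sars (126 ± 13.6 RPKM, SD, n = 3), Kars (124 ± 5.61) and Gars (121 ± 8.13) headed the cytosolic set and were within their spread of each other. Tarsl2, a further threonyl enzyme gene beside Tars, was the lowest cytosolic member at 4.01 ± 0.661 RPKM. The top mitochondrial gene was Lars2, for leucine, and the next, Tars2, had 17.6 ± 1.16 RPKM. Lars2 stood apart in its spread too, from 63.9 to 421 RPKM among the controls. Its values are therefore given on their own, and sums over mitochondrial genes are given with and without it.

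After DON, 13 of 21 cytosolic synthetase genes rose and 3 fell, whereas 5 of 16 mitochondrial genes rose and 3 fell. Over all 13556 genes tested, 33.3% rose and 34.7% fell, 68.1% in all (limma, adjusted p under 0.05 after Benjamini-Hochberg adjustment). The share that rose was 61.9% of cytosolic members and 31.2% of mitochondrial members. The median log2 fold change was 0.67 for cytosolic members (-1.05 to 1.85) and 0.15 for mitochondrial members (-1.05 to 1.01), against 0.022 for all genes. Under quantile normalization, which shifts the median of all genes by 0.10, the rises were 8 of 16 in the mitochondrial set, whose median was 0.25, and 56% of all calls were higher in place of 49%. Without control library 2 the mitochondrial median was 0.095. Fold changes are on the scale of log2(normalized count + 1). A normalized count is a gene's read number divided by 1 size factor per library. Each comparison is given in the units of its own table, so the same controls differ slightly between tables.

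**Figure D1:**
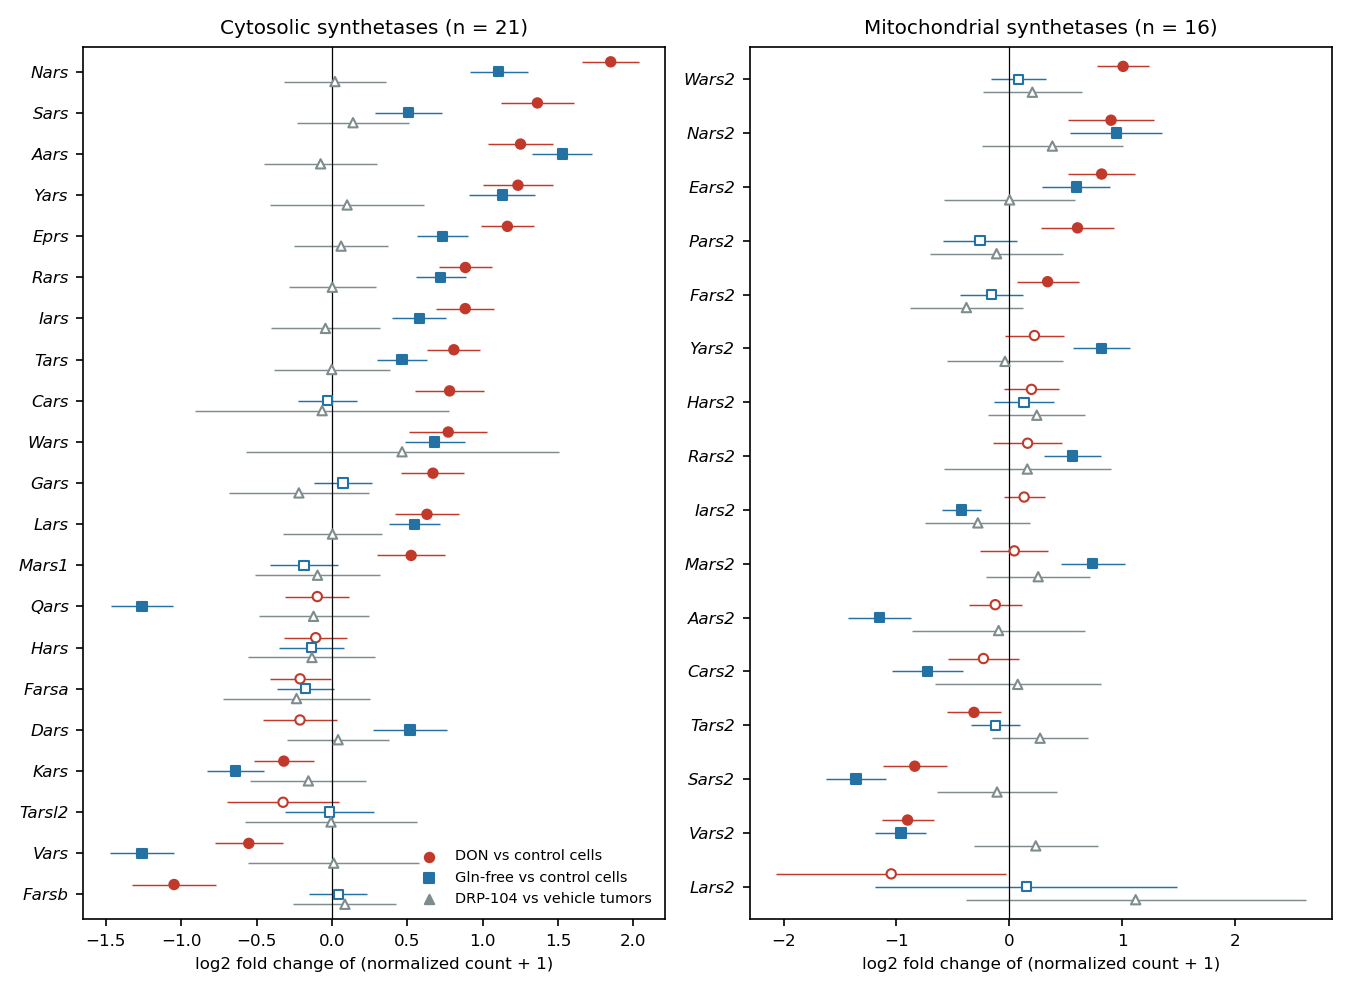
Log2 fold change of each synthetase gene (x axis, with 95% confidence intervals from limma) for the 21 cytosolic and 16 mitochondrial genes (y axis), after DON, without Gln and on DRP-104 in tumors, n = 3 libraries per group. Filled symbols passed an adjusted p of 0.05: after DON 13 cytosolic genes are filled to the right of 0 and 3 to the left, and no tumor symbol is filled.

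Nars, which charges asparagine, an amino acid made with nitrogen from Gln, rose most. Its normalized counts were 36635, 37150 and 33956 after DON and 10283, 9943 and 9658 in controls. The groups lay far apart, with a log2 difference of 1.85 ± 0.087 (SE, adjusted p = 4.31e-10). Sars, for serine, went from 16757, 15707 and 12413.5 in controls to 40654.5, 36148 and 37844 (log2 1.36 ± 0.11, adjusted p = 1.24e-07). Aars, for alanine, stood at 27190.5, 26795 and 27223 after DON and 11808.5, 12563.5 and 9913.5 in controls (log2 1.25 ± 0.10). Yars is the tyrosyl enzyme. Its DON libraries held 7223, 7517.5 and 6997 against 3544, 3149.6 and 2615 (log2 1.23 ± 0.11). Eprs, a single protein that charges both glutamate and proline, had 17211, 17532 and 16694 after DON and 7436, 7830.4 and 7689.6 in controls (log2 1.16 ± 0.082, adjusted p = 2.23e-08). In each of these 5 genes the lowest DON library was above the highest control, as it was in every other cytosolic member that rose. The share of all genes whose groups separate in culture was not counted. The other cytosolic members that rose were Rars, Iars, Tars, Cars, Wars, Gars, Lars and Mars1, by 0.53 to 0.89 on the log2 scale.

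All 5 genes with the ATF4 core in the printed windows (Aars, Gars, Iars, Tars and Yars) were among the 13 that rose. Of the 9 cytosolic genes whose window lacks it, Eprs, Mars1 and Sars rose too. Among cytosolic genes with no window at hand, Cars, Lars, Nars, Rars and Wars rose, and Hars and Vars did not. Of all cytosolic members 61.9% rose. How many of all genes with the core rose was not counted, so a link of the core to the rise was not tested. Mars1, for methionine, overlaps Ddit3, an ATF4 target on the opposite strand, by 68 bases. Ddit3 went from 488, 457 and 468 to 11609, 13277 and 10524. Whether counting used strand is not given in the sources used here, and the share of Ddit3 reads in Mars1 was not tested.

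The 3 cytosolic falls after DON were Farsb, Vars and Kars. Farsb encodes the beta subunit of the phenylalanyl enzyme. It had 1337, 963 and 1379 normalized counts after DON and 2667, 2590.1 and 2273 in controls, a log2 difference of -1.05 ± 0.13 (adjusted p = 7.19e-06). Its partner Farsa, the alpha subunit, had 2576, 2869 and 2523 against 3291, 3095 and 2842 and did not pass (log2 -0.21, adjusted p = 0.0605). Farsb overlaps Sgpp2 on the opposite strand by 2315 bases. Sgpp2 went from 254, 247 and 238 to 11.9, 11.1 and 15.1, and the part of shared reads in the Farsb value was not tested. Vars, for valine, went from 15667, 16060.4 and 12288 to 9804, 9853 and 10162 (log2 -0.55 ± 0.10, adjusted p = 0.000344). Kars, the lysyl enzyme of both compartments, had 7403, 7326 and 6783 against 9453, 9440.1 and 8012 (log2 -0.32 ± 0.093, adjusted p = 0.00742), and under quantile normalization its difference was -0.11 and did not pass. Gars, the glycyl enzyme and the other gene that serves both, rose from 10216, 10177 and 8313 to 15541, 14716.5 and 15220.1 (log2 0.67 ± 0.097, adjusted p = 3.18e-05).

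Qars, Hars, Farsa, Dars and Tarsl2 passed in neither direction after DON. Qars, the Gln enzyme itself, had 7469, 7812 and 7456 after DON against 8715, 8763 and 6974.5 in controls, with a 95% interval of the log2 difference from -0.31 to 0.12. Tarsl2 had 282, 439 and 304 against 372, 421 and 472 (log2 -0.32, adjusted p = 0.11). It overlaps Tm2d3 on the same strand by 923 bases, and Hars overlaps Hars2 on the opposite strand by 198 bases. The part of shared reads in these values was not tested. For Farsa, Hars and Qars, control library 3 was the lowest control. Without it these 3 were called lower as well, so that 6 cytosolic genes fell in place of 3, Qars by 0.21 on the log2 scale. Without DON library 2, 5 fell, Farsa and Tarsl2 being added.

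Among mitochondrial enzymes Wars2, Nars2, Ears2, Pars2 and Fars2 rose after DON. Wars2, for tryptophan, had 1219, 1176 and 1194 normalized counts against 641, 551 and 595 in controls (log2 1.01 ± 0.11, adjusted p = 1.43e-06). Nars2, the mitochondrial counterpart of Nars, had 296, 255 and 259 against 166, 119 and 151 (log2 0.90 ± 0.18). Ears2, the glutamyl enzyme that also supplies the Gln route in mitochondria, had 534, 596.5 and 491 against 342, 302 and 275 (log2 0.82 ± 0.14, adjusted p = 0.000137). No DON library overlapped a control in these 3 genes. The same held for Pars2 and Fars2, and for Hars2 and Iars2, which did not pass. The share of all genes whose groups separate was not counted. Pars2, for proline, rose by 0.60 and Fars2, for phenylalanine, by 0.34, a call lost without control library 3 or any 1 DON library.

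Vars2, Sars2 and Tars2, for valine, serine and threonine, fell after DON. Vars2 had 1003, 982.5 and 984 against 1808, 2118 and 1653, a log2 difference of -0.90 ± 0.11 (adjusted p = 4.6e-06). Sars2 had 494, 431 and 395 against 792, 870.5 and 700.2 (log2 -0.84 ± 0.13). Tars2 had 1579, 1412 and 1691 against 2041, 2093 and 1695 (log2 -0.31 ± 0.11, adjusted p = 0.0207), a call lost under quantile normalization and without DON library 1 or 2 or control library 1 or 2. The genes with the nuclear respiratory factor 1 core, Wars2 and Vars2, moved in opposite directions. Vars2 shares 4734 bases with the opposite-strand model Gm20483. Rars2, Yars2, Hars2, Iars2, Mars2, Aars2, Cars2 and Lars2 did not pass, and without control library 3 Hars2 and Yars2 were called higher.

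Lars2 was read at 10532, 15200.4 and 8999 normalized counts after DON and 55736, 29399 and 7751 in controls. The controls spread widely, the DON libraries lay inside their range, and the test did not pass (log2 -1.05 ± 0.47, adjusted p = 0.0637). Without control library 3 the difference was -1.84 and passed (adjusted p = 1.27e-05), as it did without DON library 2 (log2 -1.26). Rn7sk, a small nuclear RNA gene, was also uneven among the controls, at 853, 265 and 58.5, with 115, 116 and 28.5 after DON. Rn7sk was on none of the planned gene lists. Both genes stood in the same order across the 3 controls, which 3 values can do by accident, and whether their spread has 1 origin was not tested.

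Without Gln for 24 h, 11 cytosolic members rose and 3 fell, and 5 mitochondrial members rose and 5 fell. The background was 34.5% higher and 34.9% lower (69.4% in all) of 13390 genes tested. The median log2 fold change was 0.46 for cytosolic (-1.26 to 1.53) and -0.021 for mitochondrial members (-1.36 to 0.95), against 0.0059 for all genes. Without control library 3, 6 cytosolic genes fell in place of 3, with Farsa, Hars and Mars1 added, and the mitochondrial median was -0.24.

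Aars led the cytosolic set without Gln, with 31901, 30685 and 30916 normalized counts against 11129, 11867 and 9561 in controls (log2 1.53 ± 0.092, adjusted p = 1.82e-08). Yars had 6627, 6216.5 and 6379 against 3339.8, 2975 and 2522 (log2 1.13 ± 0.10). Nars had 21558, 21657 and 18149 against 9691, 9392 and 9315 (log2 1.11 ± 0.088). These tyrosyl and asparaginyl genes were thus clear of the controls, as was Eprs, which had 12434, 12451 and 11406 against 7008, 7396 and 7416 (log2 0.73 ± 0.079, adjusted p = 3.14e-06). Rars, Wars, Iars, Lars, Dars, Sars and Tars rose by 0.46 to 0.72. Dars, which charges aspartate, had 3166, 3032 and 2918 against 2104, 1805 and 2517 (log2 0.52 ± 0.11). Of the genes with the ATF4 core, Aars, Iars, Tars and Yars rose. Gars had 9744, 9222 and 9637 against 9628, 9613 and 8017, overlapping groups with an interval of the log2 difference from -0.12 to 0.27.

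Qars, which charges the amino acid that was withdrawn, had 3083, 3237 and 3333 normalized counts without Gln against 8213, 8277.5 and 6726 in controls, a log2 difference of -1.26 ± 0.094 (adjusted p = 1.26e-07). Its highest Gln-free library was below its lowest control. Vars fell as far, with 5722, 5619.8 and 6009 against 14765, 15170.2 and 11851 (log2 -1.26 ± 0.099, adjusted p = 1.87e-07). Kars had 5462, 5149 and 5795.5 against 8909, 8917 and 7727 (log2 -0.64 ± 0.088). The remaining cytosolic members, Cars, Farsa, Farsb, Gars, Hars, Mars1 and Tarsl2, did not pass. Tarsl2 read 434.5, 366.5 and 385 against 351, 397.5 and 455, with an interval from -0.31 to 0.28.

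The mitochondrial genes split more evenly. Nars2 had 294.5, 292 and 215 normalized counts without Gln against 156, 112 and 146 (log2 0.95 ± 0.19, adjusted p = 0.00061). Yars2, for tyrosine, rose from 853, 781 and 1052 to 1507, 1624 and 1566.5 (log2 0.82 ± 0.12). Mars2, for methionine, rose from 571, 566 and 772 to 1099, 1089 and 971 (log2 0.74 ± 0.13). Together with Ears2 and Rars2, the arginyl enzyme, these were the 5 mitochondrial rises. Ears2 had 494, 432 and 394 against 322, 285.5 and 266 (log2 0.59 ± 0.14, adjusted p = 0.002), and Rars2 rose by 0.56.

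Sars2 fell most without Gln, from 747, 822 and 675 to 291, 305 and 275 (log2 -1.36 ± 0.12, adjusted p = 6.46e-07). Aars2 went from 750.2, 853 and 757 to 354, 407 and 307 (log2 -1.15 ± 0.13), so the alanyl enzymes of the cytosol and mitochondria moved in opposite directions. Vars2 had 878, 939.5 and 891 against 1704, 2001 and 1594 (log2 -0.96 ± 0.10, adjusted p = 3.45e-06). Cars2, for cysteine, fell by 0.72 and Iars2, for isoleucine, by 0.42. Cars2 overlaps Naxd on the opposite strand by 940 bases, and Naxd fell by 1.08. Iars2 overlaps Rab3gap2 by 2018 bases, and Rab3gap2 rose by 0.36. The part of shared reads in these values was not tested. Hars2, Wars2, Fars2, Pars2, Tars2 and Lars2 did not pass, and Fars2 and Tars2 were called lower without control library 3. Lars2 libraries held 41315, 38793 and 9307 against 52528, 27769.9 and 7475, with an interval of the log2 difference from -1.19 to 1.49. Rn7sk stood in the same order as Lars2 again, at 838, 450.2 and 92.1 without Gln.

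Both treatments were compared with the same 3 control libraries, so calls in one are not independent of calls in the other. A gene called in 1 treatment only is not thereby shown to differ between them, and that difference was tested directly.

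**Figure D2:**
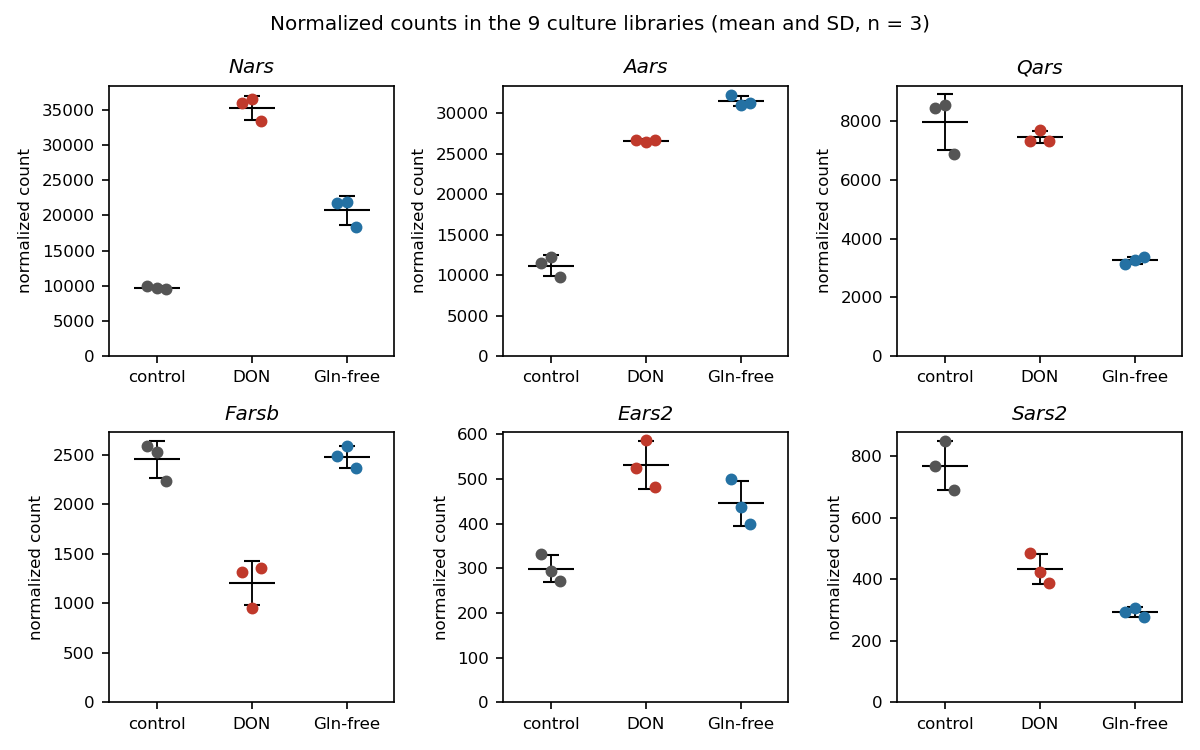
Normalized counts (y axis, from 0) of Nars, Aars, Qars, Farsb, Ears2 and Sars2 in the 9 culture libraries scaled together, as points by group (x axis), with the mean and SD of 3 libraries. Nars is highest after DON and Aars without Gln, the Qars points of the Gln-free libraries (3118.5 to 3373) and the Farsb points of the DON libraries (949 to 1356) lie below both other groups.

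DON and Gln withdrawal were compared with each other on reads of the 9 culture libraries scaled together. Of the cytosolic members, 12 were higher after DON than without Gln and 3 lower. Of the mitochondrial members, 7 were higher and 3 lower. Over 13514 genes, 31.0% were higher and 32.3% lower (63.3% in all). The median log2 difference was 0.34 for cytosolic and 0.18 for mitochondrial members, and -0.01 for all genes.

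Among cytosolic genes higher after DON, Qars differed most, at 7333, 7700.4 and 7330 normalized counts after DON against 3118.5, 3276 and 3373 without Gln (log2 1.20 ± 0.086, adjusted p = 1.31e-08). In that direction Sars came next, with 39915, 35631 and 37202 against 20785, 20559 and 19635.5 (log2 0.89 ± 0.096). Cars, for cysteine, had 7381, 6160.4 and 7422 against 3842, 3871.5 and 3947 (log2 0.84 ± 0.092). In these genes every DON library was above every Gln-free library. The same held for Nars, with 35969, 36619 and 33380.4 against 21805, 21919 and 18364 (log2 0.77 ± 0.082). Mars1, Vars, Gars, Eprs, Tars, Kars, Iars and Rars were higher after DON by 0.20 to 0.74, the call of Rars being lost without DON library 1 or 2 or Gln-free library 1 or 3. For Eprs the counts were 16898, 17281 and 16411 against 12576.5, 12601 and 11541 (log2 0.46 ± 0.07). Gars and Kars, which serve both compartments, were clear of the Gln-free libraries too. Gars had 15258.5, 14506 and 14962 against 9856, 9333 and 9751 (log2 0.63 ± 0.081). Kars had 7269, 7222 and 6668 against 5525, 5211 and 5864 (log2 0.35 ± 0.081). The 3 cytosolic genes lower after DON were Farsb, Dars and Aars. Farsb had 1313, 949 and 1356 against 2491, 2586 and 2363 (log2 -1.06 ± 0.12, adjusted p = 1.3e-06). Dars had 1938.5, 1792 and 1961 against 3202, 3069 and 2952 (log2 -0.70 ± 0.10). Aars had 26696, 26412 and 26762 against 32267, 31056 and 31283, a log2 difference of -0.24 ± 0.083 whose call was lost without DON library 2 or Gln-free library 1. Farsa, Hars, Lars, Tarsl2, Wars and Yars did not pass, and Tarsl2 had 277, 432 and 299 against 439.5, 371 and 389.9 (interval -0.62 to 0.07).

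**Figure D3:**
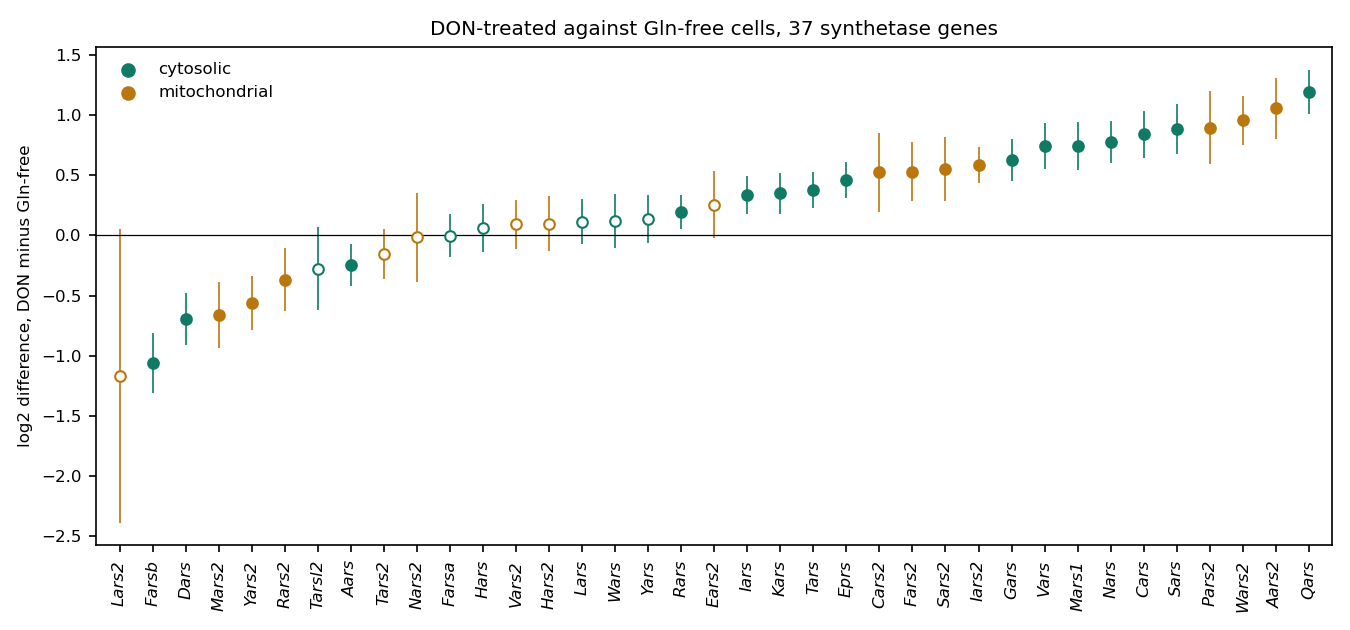
Log2 difference between DON-treated and Gln-free cells, with 95% confidence intervals from limma (n = 3 libraries per group), for the 37 synthetase genes in order of that difference. Filled points passed an adjusted p of 0.05: Qars has the highest difference (1.20) and Farsb the lowest that passed (-1.06), while the interval of Lars2 crosses 0.

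Of the mitochondrial genes, Aars2 had 750.1, 778 and 709 normalized counts after DON against 358, 412 and 311 (log2 1.06 ± 0.12, adjusted p = 1.41e-06). Wars2 had 1197, 1159.6 and 1173.5 against 576, 619 and 623 (log2 0.96 ± 0.096). Pars2 had 495, 390.5 and 435 against 226, 218 and 262 (log2 0.90 ± 0.14). These 3 alanyl, tryptophanyl and prolyl genes were the highest after DON relative to Gln-free cells, and Iars2, Sars2, Fars2 and Cars2 were higher by 0.52 to 0.59. Lower after DON were Mars2, Yars2 and Rars2. Mars2 had 647, 767 and 609.9 against 1111, 1102 and 982 (log2 -0.66 ± 0.13). Yars2 had 1129, 1103 and 990.3 against 1524, 1644 and 1585 (log2 -0.56 ± 0.11). Rars2 had 577, 434 and 469.6 against 631, 619 and 647 (log2 -0.37 ± 0.12, adjusted p = 0.0175), a call lost without DON library 2 or 3 or Gln-free library 3. Ears2 did not pass, at 524, 588 and 483 against 499.7, 437 and 399, with an interval from -0.023 to 0.54. For Nars2 the interval was -0.38 to 0.35.

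Cytosolic and mitochondrial enzymes of the same amino acid were set side by side for 14 amino acids, 15 pairs in all since Fars2 pairs with both Farsa and Farsb. Tarsl2 was left out, and so were Ears2 and Pars2, whose cytosolic counterpart Eprs charges both amino acids. After DON the cytosolic gene had the higher log2 fold change in 11 of 15 pairs, with a median difference of 0.75 (-1.39 to 2.20). The widest was serine, where Sars rose by 1.36 and Sars2 fell by 0.84. Without Gln it was 11 of 15 pairs, with a median of 0.31 (-0.92 to 2.68). The widest there was alanine, where Aars rose by 1.53 and Aars2 fell by 1.15. For methionine the order without Gln was the reverse, with log2 fold changes of -0.19 for Mars1, which did not pass, and 0.74 for Mars2. In tumors 7 of 15 differences were positive, with a median of -0.14. These counts are a description with no test.

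**Figure D4:**
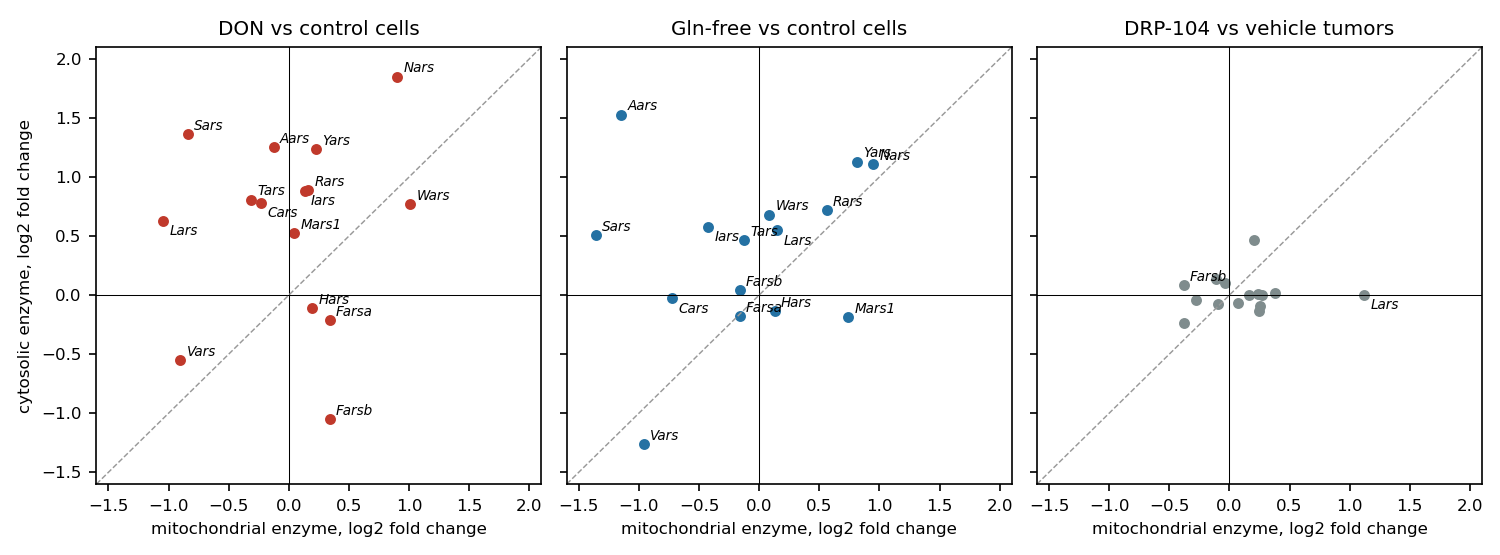
Log2 fold change of the cytosolic gene against that of the mitochondrial gene for the same amino acid, 15 pairs, in the 3 comparisons with 3 libraries per group. The dashed line marks equal change: 11 pairs lie above it after DON, 11 without Gln and 7 in tumors, where the pairs of Lars and Farsb, the farthest from the line, are named.

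Summed over the 21 cytosolic members, normalized counts were 233674 to 240632 in DON libraries, 172659 to 182307 in Gln-free libraries and 122138 to 141829 in controls, with no overlap. The 15 mitochondrial members other than Lars2 summed to 13141 to 13570 after DON, 11546 to 11952 without Gln and 12889 to 13466 in controls. The log2 ratio of the cytosolic sum to this mitochondrial sum was 4.14 ± 0.029 (SD, n = 3) after DON, 3.92 ± 0.032 without Gln and 3.35 ± 0.094 in controls. In tumors the ratio without Lars2 was 2.84 ± 0.13 on DRP-104 and 2.85 ± 0.12 on vehicle. Lars2 made up 37.2% to 80.3% of the mitochondrial sum in controls. With it included, the ratios in culture were 3.26 ± 0.20, 2.20 ± 0.73 and 1.80 ± 0.75, and the Gln-free libraries overlapped both the DON and the control libraries. In tumors they were 1.58 ± 0.95 on DRP-104, with DRP-104 tumor 3 at 0.48, and 2.17 ± 0.27 on vehicle, and the groups overlapped. Highly expressed genes weigh most in these sums.

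By place and class of enzyme, the 8 members of the multisynthetase complex gave 5 rises and 1 fall after DON and 5 rises and 2 falls without Gln. The 13 other cytosolic members gave 8 rises and 2 falls after DON, and 6 rises and 1 fall without Gln. Synthetases fall into classes I and II by the fold of their catalytic domain, and Eprs, which joins both, was left out. Class I enzymes gave 9 rises and 2 falls of 18 after DON, and class II enzymes 8 rises and 4 falls of 18. Without Gln these were 9 and 5 for class I, and 6 and 3 for class II. Over all genes tested, 33.3% rose and 34.7% fell after DON. Without Gln, 34.5% rose and 34.9% fell. The counts by place and class are a description. Whether these sets differ from each other or from all genes was not tested.

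Aimp1, Aimp2 and Eef1e1, the scaffold proteins of the complex, were measured as well. Aimp1 had 4111, 3743.5 and 4189.9 after DON against 3375, 2971 and 2899 (log2 0.38, adjusted p = 0.00233). Without Gln it had 5682, 5670.4 and 6029.7 against 3181, 2806 and 2796 (log2 0.99). Eef1e1 had 2496, 2452 and 2347 after DON against 1222, 924 and 1342 (log2 1.08). Both genes rose in both treatments, and Eef1e1 had 2961, 2798 and 2793 without Gln against 1152, 873 and 1294 (log2 1.38). Aimp2 had 1526, 1536 and 1346 after DON against 1322, 1309 and 1083, which did not pass (log2 0.25, adjusted p = 0.0565). It rose without Gln, with 1992, 1806 and 1795 against 1246, 1236 and 1044 (log2 0.67). All 3 scaffold genes were lower after DON than without Gln, by 0.27 to 0.57 on the log2 scale. Eef1e1 had the smallest difference (adjusted p = 0.0463). Of the 8 synthetases of the complex, by contrast, 6 were higher and 1 lower.

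For the mitochondrial Gln route, Gatc rose in both treatments. It had 1123, 1104 and 970.5 after DON against 697, 588 and 682 (log2 0.70, adjusted p = 9.59e-05) and 970.3, 917 and 972 without Gln against 657, 556 and 658 (log2 0.62). Gatb did not pass in either, with 614, 644.5 and 625 after DON against 563, 602 and 445 (log2 0.24, adjusted p = 0.127) and 380.2, 430.5 and 426 without Gln against 531, 569 and 429 (log2 -0.30, adjusted p = 0.0659). It was higher after DON than without Gln (log2 0.57). Qrsl1 had 329.5, 283 and 329 after DON against 389.8, 252 and 312, and 341.5, 287 and 283 without Gln against 367, 238 and 301, with intervals from -0.37 to 0.36 and from -0.34 to 0.39.

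Other genes of transfer RNA charging and supply moved both ways: of 21 tested, 8 rose and 3 fell after DON, and 7 rose and 8 fell without Gln. The background for this list and those below was 33.3% of all genes higher and 34.7% lower after DON. Without Gln it was 34.5% higher and 34.9% lower. Gtpbp2, a GTPase of ribosome rescue, rose most in both. It went from 1457.5, 1344 and 1332 to 4720, 4248 and 5151 after DON (log2 1.77) and from 1374, 1269 and 1285 to 3274, 3487 and 3447 without Gln (log2 1.38). Dtd1, which frees transfer RNA of D-amino acids, fell most after DON, from 327, 295 and 308 to 136, 169.9 and 120 (log2 -1.13, adjusted p = 5.11e-05). Tufm, the mitochondrial elongation factor that carries charged transfer RNA, fell most without Gln, from 4711, 4723 and 4085 to 2280, 2343 and 2281 (log2 -0.97). Between the treatments, the largest differences were a higher Tufm (log2 0.91) and a lower Rpp30, of the RNase that trims transfer RNA, after DON (log2 -0.85). RNA polymerase III transcribes transfer RNA genes. Of its 20 listed genes 10 rose and 1 fell after DON, from Brf1 (-0.51) to Polr3e (0.86). Without Gln 6 rose and 8 fell, from Brf1 (-0.73) to Bdp1 (1.86). All 8 reference genes of the amino acid response rose after DON, from Slc7a11 (log2 0.68) to Ddit3 (4.64), and 7 of 8 rose without Gln, from Psat1 (0.34) to Ddit3 (4.48). Between the treatments the extremes were Polr3c (1.06) and Bdp1 (-1.10) for polymerase III, and Chac1 (1.40) to Atf4 (0.35) for the 6 reference genes that differed, all higher after DON. These lists were picked with earlier results of the same libraries known, so their counts are a description.

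In tumors, 0 of 21 cytosolic and 0 of 16 mitochondrial members passed between DRP-104 and vehicle. Of the 15454 genes tested with limma, 0.0% passed and 5.01% had an unadjusted p under 0.05, as did 0 cytosolic and 0 mitochondrial members. Over all genes edgeR called 0 higher and 0 lower (844 at an unadjusted p under 0.05), and DESeq2 called 29 higher and 42 lower, with 0 members in either. The median log2 fold change was -0.0016 for cytosolic (-0.23 to 0.47) and 0.12 for mitochondrial members (-0.38 to 1.12), against -0.01 for all genes. Without DRP-104 tumor 3 the mitochondrial median was -0.082.

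For Nars the DRP-104 tumors had 3905, 3987 and 3135 normalized counts and the vehicle tumors 3417, 3874 and 3540.4, with a 95% interval of the log2 difference from -0.32 to 0.36. Aars had 2687, 2900 and 2236 against 2397, 2692 and 3158 (interval -0.45 to 0.30). Qars had 2477, 2758 and 2949 against 2480, 3378 and 3101 (interval -0.49 to 0.24). DRP-104 and vehicle tumors overlapped in these genes and in Eprs, Ears2, Gars, Kars and Tarsl2. Eprs had 3102, 3655.5 and 3035 against 3138, 2953 and 3276 (interval -0.25 to 0.37). Ears2 had 209.6, 141 and 208 against 197, 192 and 162 (interval -0.58 to 0.58). The glycyl gene Gars had 3413, 2829.6 and 2373 against 2584, 3680.1 and 3805, a log2 difference of -0.22. Neither this gene nor the lysyl gene Kars passed, the latter having 3155, 3225 and 4007 against 3250.3, 3954 and 4392 (log2 -0.16). Tarsl2 had 165, 202 and 144 against 145, 188 and 178. In the same tumors the scaffold and amidotransferase genes had log2 differences of -0.20 to 0.029, and none of them passed. Gatc lay farthest from 0, with 154, 216 and 308 on DRP-104 against 256.5, 299.6 and 200.2 on vehicle. Of the 8 reference genes of the amino acid response, 0 passed in tumors, with log2 differences of -0.24 to 0.44.

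The smallest unadjusted p-values among members in tumors belonged to Fars2, Lars2 and Tars2. Fars2 had 198, 275.7 and 253 on DRP-104 against 276.1, 353 and 313 on vehicle (log2 -0.38 ± 0.22, adjusted p = 0.916). Its groups did not overlap, nor did those of Nars2 (116.6, 107 and 142 against 102, 93.7 and 83.7, adjusted p = 0.92), and those of the other members did. With 3 tumors against 3, full separation gives an exact permutation p of no less than 0.1. The share of all genes that separate was not counted, so these genes are not shown to stand out. Lars2 had 4430.3, 4758 and 28034 against 5693, 2899.9 and 3497 (log2 1.12 ± 0.65, adjusted p = 0.916). Tars2 had 1017, 1114 and 1534 against 1081, 913 and 1000.1 (log2 0.27 ± 0.18, adjusted p = 0.917). DRP-104 tumor 3 carried the high value of Lars2 and Tars2, and without it their differences were 0.25 and 0.096. On the separate FPKM table, whose columns could not be matched to these tumors, the differences of Fars2 (0.095) and Lars2 (-0.17) had the opposite sign. DRP-104 tumor 3 was also high in Wars, whose tryptophanyl enzyme is known to be induced by interferon, and this gene was chosen after its values were seen. Wars had 2641, 2721 and 9196 on DRP-104 and 3401, 3268 and 2260.1 on vehicle. The log2 difference of Wars was 0.47 with tumor 3 (adjusted p = 0.925), -0.13 without it and -0.14 on the FPKM table. The 8 markers of T and B cells summed to 1270 normalized counts in this tumor, to 68 and 46 in the other DRP-104 tumors and to 56 to 132 on vehicle. Their part in the Wars value was not tested.

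Tumors hold other cells as well, and in bulk RNA fewer cells of a type and less RNA per cell cannot be told apart. The 8 fibroblast markers summed to 19927 to 35222 on DRP-104 and 41770 to 85656 on vehicle. Of these, 6 of 8 had a lower value at an unadjusted p under 0.05 (limma), against 5.01% of all genes in either direction. Each of the 8 had an adjusted p of 0.916, and no marker of any cell type passed. The 8 markers of tumor epithelium summed to 138080 to 193743 and 128491 to 169158. The 5 endothelial markers summed to 1122 to 1560 and 1800 to 2046. Markers of acinar cells (210 to 1127 and 166 to 3242), islets (198 to 805 and 90 to 340) and macrophages and neutrophils (5144 to 10276 and 7086 to 9360) overlapped. How far any of these moved the synthetase values was not tested. In control cells the epithelial markers summed to 401477 to 512777, the fibroblast markers to 471 to 630 and the islet markers to 0. The epithelial sums were 122368 to 129829 after DON and 163473 to 179079 without Gln. The fibroblast sums were 121 to 157 after DON and 1076 to 1123 without Gln. These sums thus moved with treatment in a cultured line, so they do not measure cell numbers alone. Culture and tumor libraries were scaled apart, so their sums are not compared.

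A direct test of the difference, the DRP-104 effect in tumors minus the DON effect in cells, called 11 cytosolic members lower and 1 higher, and 3 mitochondrial members lower and 2 higher. Over 15070 genes, 14.0% were lower and 19.1% higher (33.1% in all), and under quantile normalization the higher share of calls was 50% in place of 57.6%. Nars differed by -1.83 ± 0.16 on the log2 scale (adjusted p = 4.51e-06), Aars by -1.33 ± 0.19 and Sars by -1.22 ± 0.21. The other cytosolic genes with a lower effect in tumors were Yars, Eprs, Iars, Gars, Rars, Tars, Lars and Mars1, at -1.13 to -0.62, the call of Mars1 being lost without DRP-104 tumor 3, vehicle tumor 2 or 3, any 1 DON library, or control library 2 or 3. Farsb, which fell in cells, differed by 1.13 ± 0.21 (adjusted p = 0.00101). In Qars, whose DON effect in cells did not pass, the interval of the difference was -0.43 to 0.38. Of the 8 reference genes of the amino acid response, 7 were called lower and 0 higher (median log2 -1.68). Wars did not pass (log2 -0.31, adjusted p = 0.679) and passed without DRP-104 tumor 3 (log2 -0.90, adjusted p = 0.00879). Of the mitochondrial genes, Ears2, Wars2 and Fars2 were called lower and Vars2 and Sars2 higher. The calls of Ears2, Fars2 and Sars2 were each lost when some single libraries were left out, and those of Wars2 and Vars2 were kept whichever library was left out. Lars2 did not pass (log2 2.17, adjusted p = 0.109) but was called higher with edgeR or DESeq2 (log2 3.03 with edgeR) and without control library 3 (log2 2.96). The mitochondrial counts rested on single libraries: 1 gene was higher without DRP-104 tumor 2 or 3, vehicle tumor 1 or 2, DON library 2 or 3, or control library 1 or 2, 4 were higher without control library 3, and 1 gene was lower without vehicle tumor 2, DON library 1 or 2, or control library 3. Tumors and cells differed in compound, dose, time and neighboring cells, whose parts in these differences cannot be told apart.

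**Figure D5:**
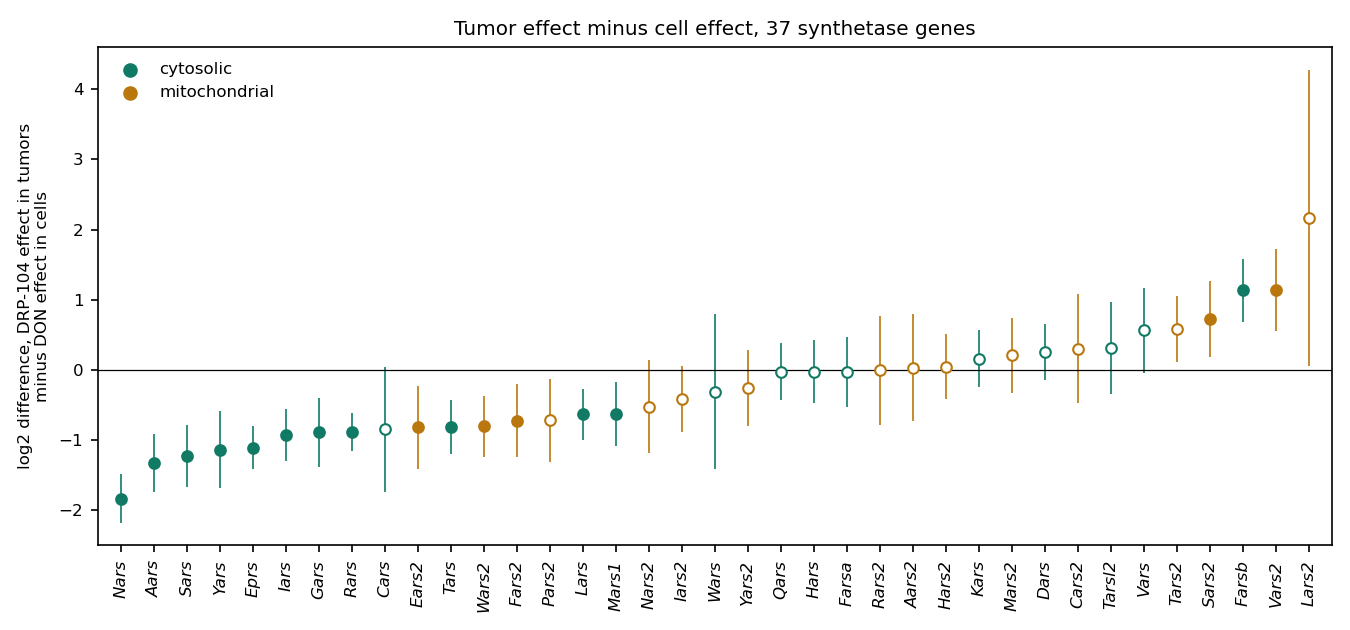
Log2 difference between the DRP-104 effect in tumors and the DON effect in cells, with 95% confidence intervals from limma on 12 libraries (3 per group), for the 37 synthetase genes in order of that difference. Filled points passed an adjusted p of 0.05: Nars is lowest at -1.83, and of the filled cytosolic points Farsb alone lies above 0.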

How the data were processed

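RNA was extracted with TRIzol and a column kit and sequenced by a provider, which aligned reads with HISAT2 and ran DESeq2. The submitters' processing notes also name CASAVA, STAR 2.5 and GRCm39, whereas coordinates in the FPKM table are those of GRCm38. The authors deposited 3 tables of signal values (counts of a gene over a size factor for its library) and FPKM tables. Whole reads were recovered from at least 99.99% of values (tolerance 0.0051). In the culture tables the control columns bear the names of the vehicle tumor samples. They were mapped to control cells by group only, and their islet markers are at 0.

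limma 3.58.1 (R 4.3.3) was fitted on log2(deposited signal + 1) for genes with a mean of at least 10, within each table. DON against Gln-free used recovered reads of the 9 culture libraries scaled by median-of-ratios, and the tumor effect minus the cell effect used 12 libraries. P-values were adjusted by the Benjamini-Hochberg method over all genes tested, and scripts were tested on simulated data. Alternatives were edgeR 4.0.16 and DESeq2 1.42.0 run on those reads, lowest means of 1, 50 or none, pseudocounts (0.5, 5), quantile normalization, a threshold of 0.01, a replicate block, libraries left out in turn, 1 fit of 9 libraries, and limma on log2(FPKM + 1). The fit of the 6 treated libraries alone and sums without Lars2 were chosen after seeing the data. Other FPKM tables repeat values or hold the authors' means and were not used, and neither were the authors' fold changes and p-values. A gene that the symbol rule also takes and part of the line's genotype are not reported here. Values were given per library for the 4 cytosolic and 3 mitochondrial genes that moved most in each direction, for genes of Gln, glutamate and both compartments, and for the scaffold and amidotransferase lists. Members and lists were chosen with earlier results of these data known.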

Additional observations from a re-analysis of the deposited data

Results flagged for a closer look

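For 17 of the 37 synthetase genes the effect of DRP-104 in tumors differed from the effect of DON in cells by a test of the difference itself (limma, adjusted p under 0.05). The log2 differences, tumor effect minus cell effect, were Nars -1.83, Aars -1.33, Sars -1.22, Yars -1.13, Eprs -1.10, Iars -0.93, Gars -0.89, Rars -0.88, Tars -0.81, Lars -0.63 and Mars1 -0.62 for cytosolic genes with a lower effect in tumors. For mitochondrial genes with a lower effect in tumors they were Ears2 -0.81, Wars2 -0.80 and Fars2 -0.72. Genes with a higher effect in tumors were Sars2 0.73, Farsb 1.13 and Vars2 1.14. Over all genes tested, 33.1% were called, and the comparison of tumors alone called 0 of these genes. Groups of 3 libraries were not tested for single values that stand apart.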

How the results depend on the processing

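When single libraries were left out, the count of cytosolic members that fell was 3 to 6 after DON (6 without control library 3, 5 without DON library 2) and 3 to 6 without Gln (6 without control library 3). In the tumor effect minus the cell effect, 1 to 2 cytosolic members were higher, and 1 to 4 mitochondrial members were higher and 1 to 4 lower. The mitochondrial median log2 fold change without Gln was -0.24 (without control library 3) to 0.019 (without control library 1). Under quantile normalization the cytosolic median log2 fold change after DON was 0.85, the mitochondrial one 0.25, and 8 mitochondrial members rose. For the tumor effect minus the cell effect, 1 mitochondrial member was higher under quantile normalization, with a lowest mean of 1, with no filter and at an adjusted p of 0.01, and 1 was lower with no filter and at 0.01. Cytosolic and mitochondrial counts and medians under the other alternatives stayed within 1.5 times (counts) or within the spread between replicates (medians) of the values reported. In tumors the FPKM table gave Fars2 0.10 and Lars2 -0.17, both of opposite sign, as was Wars (-0.14), and the cause was not tested. Within-group deviations of FPKM and count columns had a highest correlation over any pair of 0.198 for DRP-104 and 0.37 for vehicle. Whether the FPKM columns hold the same libraries is thus not known, and their values may not be a mere change of processing. The mitochondrial median in tumors was -0.082 without DRP-104 tumor 3 and -0.019 on the FPKM table. Of single genes called, 21 of 24 after DON, 24 of 24 without Gln, 22 of 25 between the treatments and 12 of 17 for the tumor effect minus the cell effect kept their direction and call under every alternative run.

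Deviations of same-numbered libraries had correlations of -0.36 to 0.038 in tumors and -0.025 to 0.071 for DON and Gln-free cells. With 3 libraries per group, these values cannot tell whether a number marks a shared batch or pairing. With the replicate number as a block, 0 cytosolic and 0 mitochondrial members passed in tumors, with medians of -0.0016 and 0.12. Between DON and Gln-free cells the block gave 13 higher and 3 lower cytosolic members, and 7 higher and 4 lower mitochondrial members. Over all genes the calls went from 4188 higher and 4361 lower to 4518 and 4719. No paired analysis was possible for the comparisons with control cells because the control columns carry no number of those samples' own. Counts limit the lowest members, such as Nars2 with 83.7 to 142 normalized counts in tumors, and 3 tumors per group limit that comparison.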
